A study of Mus musculus with 12 samples.

Results

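Cerebellum RNA of 1 adult NMR-1 mouse was measured after 2 labelling procedures, and the signal of every transcript after the longer procedure was compared with its signal after the standard one. The members were the 4 cerebellum arrays of a series of 12, which also holds 4 arrays each of cortex and liver from the same animal, and the comparison took in 12422 of 12488 probe sets on the Affymetrix MG_U74Av2 array (66 control probe sets of the manufacturer were left out). The standard procedure, 1X, started from 5 µg of RNA, used 1 linear amplification and had 1 array. The modified procedure, 3X, started from 1 ng, used 3 linear amplifications with the RiboAmp HS kit (Arcturus) and had 3 arrays that are technical replicates. The amount of RNA, the kit and the rounds of amplification all differed between the procedures, and their parts cannot be told apart. The RNA had been extracted with TRIzol and column-purified (RNeasy), and both products carried biotin. With 1 animal and technical replicates, p-values measure only the spread between arrays.

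The cerebellum is built around granule cells, its very numerous small excitatory neurons, and Purkinje cells. Purkinje cells carry the output of the cerebellar cortex and are inhibited by interneurons of the molecular layer. Bergmann glia, a type of astrocyte, surround the Purkinje cells, and oligodendrocytes wrap the axons of the white matter in myelin. Linear amplification makes complementary DNA with a promoter for an RNA polymerase at the end that matches the poly(A) tail, and copies it by in vitro transcription. The product of each round is the template of the next, and it is usually made with random primers from the second round on, which tends to favour the 3′ end of a transcript.

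Signals are log2 values per probe set. A difference is the mean of the 3 3X arrays minus the 1X array, with its standard error (SE) from limma. The spread came from the 3X arrays alone, and the lone 1X array was assumed to vary like them. A probe set was called at a Benjamini-Hochberg adjusted p under 0.05. It is termed lost or raised where it was called and at least 2-fold lower or higher at 3X, kept where the 95% interval of its difference lay within 2-fold in both directions, and unresolved otherwise. An exact permutation test of 1 array against 3 cannot give a p below 0.25 for a single gene.

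The 3X arrays resembled each other far more than they resembled the 1X array. Pearson's r across probe sets was 0.992 to 0.994 between 3X arrays and 0.912 to 0.915 between a 3X array and the 1X array. The median SD of a probe set over the 3 3X arrays was 0.10, and its 90th percentile was 0.21. The array medians were 3.46 at 1X and between 3.45 and 3.46 at 3X.

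In all, 5020 probe sets were called. Those called lower at 3X were 2217 (17.8% of all tested), and those called higher were 2803 (22.6%). Many of these differences were small: 917 probe sets (7.38%) were lost, 351 (2.83%) raised, 10008 (80.6%) kept and 1146 unresolved. Loss was also the larger change, since 80 probe sets were lost by at least 8-fold and 4 were raised by as much. The median difference of all probe sets was 0.14.

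**Figure D1:**
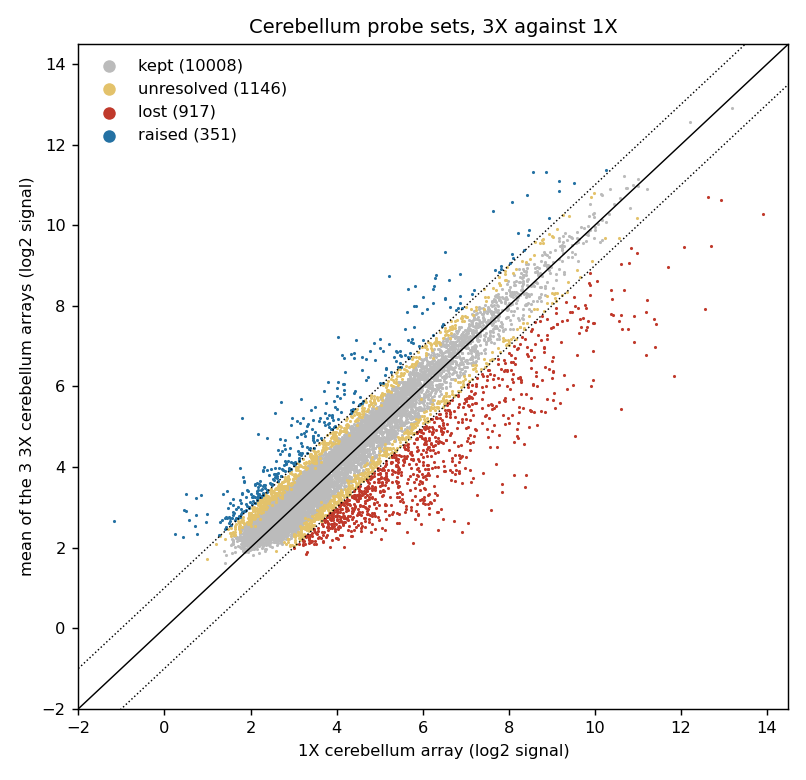
Each point is a probe set, with its log2 signal on the 1X cerebellum array on the x axis and its mean over the 3 3X arrays on the y axis. The solid line marks equality and the dotted lines a 2-fold difference; the 917 lost probe sets fan out below the lines on the bright side, and the 351 raised ones lie above.

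Losses were mostly among bright transcripts. Of the 6211 probe sets above the median of the 1X array, 889 were lost, 152 raised and 4428 kept, and of the 6211 at or below it 28 were lost, 199 raised and 5580 kept. A probe set near background has little signal to lose, so keeping it says little, and a fold against a dim signal is no ratio of RNA. The shares are also given by level on the 1X cortex array, which shares the procedure and the animal and so gives no independent support. In 5 bins of equal size from dim to bright there, 0.161%, 0.886%, 5.23%, 10.9% and 19.7% of cerebellum probe sets were lost. The raised share was 5.31% in the dimmest bin and 1.77% to 2.82% in the others.

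The 12 genes with the largest losses have varied roles. They were chosen with the 1X array outside the range of the 3X arrays, so that separation is no added support. Atp5l, a subunit of the mitochondrial ATP synthase, gave 11.84 on the 1X array and 6.21, 6.19 and 6.39 on the 3X arrays, a difference of -5.57 ± 0.13 (SE, 3 arrays against 1; limma adjusted p = 1.6e-07), or 47.6-fold. All 3 3X arrays lay far below the 1X array and close to each other. Actg1, cytoplasmic gamma-actin, stood at 8.39 and then at 3.32, 3.43 and 3.74, a difference of -4.89 ± 0.17. Visinin-like 1 (Vsnl1), a neuronal calcium sensor, stood at 12.56 and then at 7.83, 8.11 and 7.80, a difference of -4.65 ± 0.15. Snap25, a SNARE protein of synaptic vesicle fusion, stood at 11.43 and then at 7.58, 7.80 and 7.27 (-3.88 ± 0.19). Vsnl1 and Snap25 were still well above the array median at 3X, while Actg1 ended near it.

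Others of this group were Dynll2, a dynein light chain (-4.66 ± 0.12), the cytoskeletal septin Septin7 (-4.60 ± 0.14) and the alpha-tubulin Tuba1c (-4.45 ± 0.16). The myelin gene Mobp fell by 4.46 ± 0.15, the nucleotide hydrolase Hint1 by 4.33 ± 0.14, and Gpx3, a secreted glutathione peroxidase, by 4.07 ± 0.13. Tmsb10, an actin-binding thymosin, fell by 3.92 ± 0.14 and Dbi, which binds acyl-CoA, by 3.90 ± 0.14. The limma adjusted p was 5.6e-07 or lower for these genes. Dynll2, Septin7, Mobp, Tuba1c, Hint1, Gpx3 and Tmsb10 ended between 2.32 and 3.96, around or below the 3X medians.

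Of the 917 lost probe sets, 566 still had a 3X mean above the 3X median and 351 did not. Of the 917, 701 were also at least 2-fold lower at 3X in cortex and 452 in liver.

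Raised genes were fewer and included several with probe sets that are not specific to a single gene. Faap20, of the Fanconi anemia DNA repair pathway, stood at 5.22 on the 1X array and at 8.53, 8.89 and 8.79 on the 3X arrays, a difference of 3.52 ± 0.16 (limma adjusted p = 1.1e-06). Gstm5, a glutathione transferase, was bright under both procedures, at 8.56 and then at 11.18, 11.30 and 11.46 (2.75 ± 0.14). The small ribosomal protein gene Rps28 stood at 7.63 and then at 10.34, 10.40 and 10.34 (2.72 ± 0.12). The 1X array was below every 3X array for each of them, which the rule for naming raised genes required. Other probe sets of Gstm5 (-0.94) and Rps28 (-2.41) were called lower.

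Among the remaining raised genes, 3 started below the 1X median. S100a13, a calcium-binding protein, stood at 1.80 at 1X and at 4.97 to 5.44 at 3X, Uqcrc2, a core subunit of respiratory complex III, at 2.70 and 5.58 to 5.67, and Csnk2a1, a subunit of casein kinase 2, at 2.57 and 4.73 to 5.71. For such dim starting signals no fold is given. Grhpr of glyoxylate metabolism was raised by 2.81 ± 0.12, Fam3c, a secreted protein, by 3.20 ± 0.22, Txndc9, a thioredoxin-domain protein, by 2.78 ± 0.19, and Cavin3 of caveolae by 2.69 ± 0.14. Imp4 of ribosome biogenesis was raised by 2.66 ± 0.18 and Romo1 of mitochondrial oxidant production by 2.65 ± 0.22. Other probe sets were called lower by less than 2-fold for S100a13 (-0.62), Fam3c (-0.43) and Csnk2a1 (-0.47).

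Probe set identifiers on this array carry a suffix where probes are shared with other transcripts or were chosen under relaxed rules. Of 2808 probe sets with any suffix, 7.48% were raised and 4.52% lost, against 1.47% raised and 8.22% lost of those without. The share raised was 12.65% for the suffix _f. In the group of 12 named raised genes the identifiers of Faap20, S100a13, Fam3c, Uqcrc2, Grhpr, Gstm5, Rps28, Cavin3 and Romo1 carry a suffix.

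**Figure D2:**
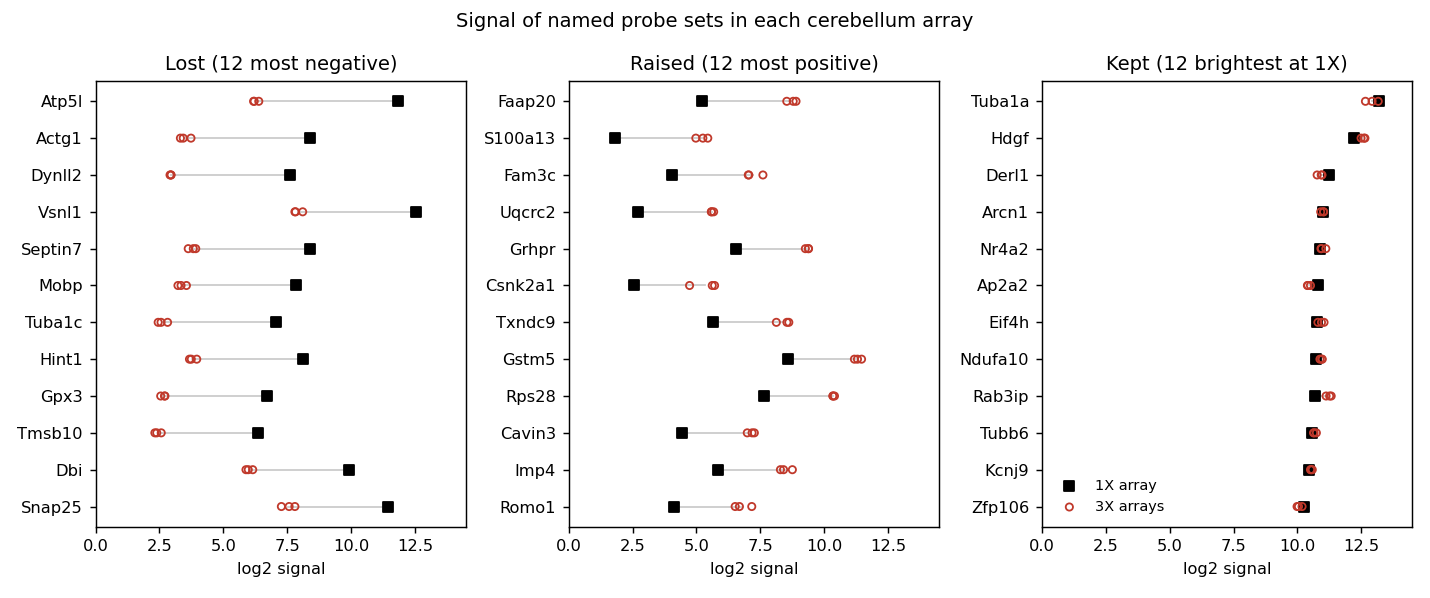
Log2 signal of the 12 genes with the largest losses, the 12 with the largest gains and the 12 brightest kept genes; the black square is the 1X array and the open circles are the 3 3X arrays. The circles of lost and raised genes stay together. They lie away from the square, and those of kept genes on or beside it, as the rules for choosing them required.

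The brightest kept genes held their signal within a narrow range. The alpha-tubulin Tuba1a stood at 13.19 on the 1X array and at 12.66, 12.92 and 13.16 on the 3X arrays, a difference of -0.28 with an interval of -0.69 to 0.14. Arcn1, a coat protein of Golgi vesicles, stood at 11.01 and then at 11.02, 11.02 and 10.91 (-0.02, interval -0.30 to 0.26). Ndufa10, a subunit of respiratory complex I, stood at 10.72 and then at 10.97, 10.88 and 10.95 (0.21, interval -0.07 to 0.48). Tuba1a was kept while Tuba1c was lost, but the identifiers of both carry a suffix, so their probes may not be specific to a single gene. Arcn1 had its 1X value within the range of the 3X arrays.

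The other bright kept genes were Hdgf, a growth factor (0.36), Derl1 of protein export from the endoplasmic reticulum (-0.33), the nuclear receptor Nr4a2 (0.09), the clathrin adaptor Ap2a2 (-0.38) and the translation factor Eif4h (0.18). Rab3ip, which activates Rab proteins, differed by 0.55, the beta-tubulin Tubb6 by 0.09, the potassium channel Kcnj9 by 0.10 and the zinc finger gene Zfp106 by -0.18. Most of these signals were as bright in liver. Nr4a2 gave 10.89 in cerebellum and 10.75 in liver at 1X, and Kcnj9 gave 10.44 and 10.24, whereas Tuba1a gave 6.89 in liver. Kcnj9 is known as a neuronal gene; its identifier carries a suffix, as do those of Tuba1a, Hdgf, Arcn1, Nr4a2, Rab3ip and Tubb6.

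Gene lists for cell types, pathways and complexes were counted with a single probe set a gene, the one with the highest mean signal. The background for these counts is 8251 genes, of which 665 (8.06%) were lost, 199 (2.41%) raised and 6650 (80.6%) kept. No list was tested as a set. Lists of bright genes hold more signal that can be lost, so the number of members above the 1X median is given beside the counts where it bears on them.

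Markers of granule cells were partly lost: 4 of 25 measured were lost, 1 was raised and 18 were kept, with a median difference of -0.11. Gabra6, a GABA-A receptor subunit that defines mature granule cells, has 2 probe sets. The brighter gave 6.61 at 1X and 5.17, 5.82 and 5.27 at 3X (-1.19 ± 0.23; limma adjusted p = 0.0034), and the other gave 6.14 and then 3.70, 3.93 and 3.77 (-2.35 ± 0.13). Both probe sets had every 3X array below the 1X array, and the loss differed in size between them.

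Zic1, a transcription factor of the granule lineage, stood at 5.67 and then at 4.24, 4.22 and 3.75 (-1.61 ± 0.19). Calb2, calretinin, fell from 5.27 to between 3.02 and 3.07 (-2.22 ± 0.12), and Reln, the secreted reelin, by 1.51 ± 0.14, although another Reln probe set was called higher (0.87). Neurod1, a transcription factor of granule neurons, moved the other way, from 4.15 to 6.10, 6.39 and 5.66 (1.91 ± 0.23; limma adjusted p = 0.00030). The GABA-A subunit Gabrd (0.17), the NMDA receptor subunit Grin2c (-0.32) and Zic2 (0.38) were kept.

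Of 23 Purkinje cell markers 4 were lost and 17 kept, with a median of 0.10 that was -0.02 under quantile normalization. Calbindin (Calb1), the calcium buffer used to mark these cells, stood at 5.95 and then at 3.99, 4.43 and 4.59 (-1.62 ± 0.21). Syt2, a synaptotagmin of fast release, fell by 1.44 ± 0.13, the heavy neurofilament Nefh by 1.29 ± 0.17 and the inositol phosphatase Inpp5a by 1.12 ± 0.16, although another probe set of Inpp5a was raised (1.03). Pcp2, known as a Purkinje cell gene, was kept by both its probe sets, at differences of 0.19 and -0.33. Slc1a6, the glutamate transporter of Purkinje cells, was called lower by less than 2-fold (-0.70 ± 0.15). In this list 15 of the 23 genes were above the 1X median.

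Among 19 markers of inhibitory neurons, 3 were lost and 12 kept. Gad1, which makes GABA, stood at 7.61 and then at 4.92, 5.26 and 4.50 (-2.72 ± 0.24). The peptide somatostatin (Sst) fell by 2.80 ± 0.15 and the glycine receptor subunit Glrb by 1.51 ± 0.12. Parvalbumin (Pvalb), a calcium buffer of interneurons and Purkinje cells, had a probe set called higher, from 5.10 to 5.50, 6.03 and 5.89 (0.71 ± 0.19), and another that was kept (-0.31).

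The lists for astrocytes and myelin held larger shares of lost genes than the background of 8.06%. Of 30 markers of Bergmann glia and astrocytes 12 were lost, 2 raised and 13 kept, and 24 of the 30 were above the 1X median. Aqp4, the water channel of astrocyte endfeet, stood at 8.60 and then at 5.46, 5.69 and 4.97 (-3.22 ± 0.24). Sparcl1, a matrix protein of astrocytes, fell by 3.48 ± 0.13, and the metallothioneins Mt1 and Mt3 by 3.21 ± 0.13 and 2.91 ± 0.13.

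The astrocyte aldolase Aldoc fell by 2.33 ± 0.14 and the filament protein Gfap, by its brighter probe set, from 6.55 to 4.86, 4.45 and 4.70 (-1.88 ± 0.16). Cystatin C (Cst3) rose, from 8.88 to 11.15, 11.38 and 11.47 (2.46 ± 0.15), although another probe set of Cst3 was called lower (-0.91). Mt2 (0.49) and Hopx (-0.08) were kept, as was clusterin by the probe set with the highest mean signal (Clu, 0.35), while another Clu probe set was lost (-2.56).

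Myelin had the lowest median among the cell type lists, -0.88: 10 of 22 genes were lost, none raised and 8 kept, with 18 of the 22 above the 1X median. Myelin basic protein (Mbp) stood at 12.69 and then at 9.51, 9.66 and 9.27 (-3.21 ± 0.16; limma adjusted p = 2.1e-06). Mag, the myelin-associated glycoprotein, stood at 8.57 and then at 6.28, 5.99 and 5.85 (-2.53 ± 0.17), while its other probe set was kept (0.27). Qdpr, which recycles tetrahydrobiopterin, fell by 2.35 ± 0.12, carbonic anhydrase 2 (Car2) by 2.23 ± 0.16 and the desaturase Scd2 by 2.04 ± 0.16, although another Scd2 probe set was called higher (0.88). The loss did not take every gene of the lineage. The proteolipid Mal (-0.66), the membrane protein Evi2a (-0.55) and Sox10, the transcription factor that specifies oligodendrocytes (0.26), were kept.

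None of 25 microglia and macrophage genes was lost, 2 were raised and 22 kept, with 14 of the 25 above the 1X median. Tyrobp, the signalling adaptor of microglial receptors, stood at 6.78 and then at 7.71, 8.02 and 7.94 (1.11 ± 0.15), and Laptm5 was raised by 1.42 ± 0.13. None of 14 choroid plexus and ependyma genes was lost or raised, and 12 were kept. Transthyretin (Ttr), the marker of choroid plexus, was called higher by less than 2-fold (0.72 ± 0.14). Of 26 vascular genes 2 were lost and 20 kept, among them the glucose transporter Slc2a1 (-0.16). In the list for red blood cells the globins Hba-a1 and Hbb-b2 fell by 3.59 ± 0.15 and 1.88 ± 0.19, and 9 of 12 genes were kept.

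Lists of energy metabolism also held shares of lost genes above the background of 8.06%. Most of their members were bright, and of all probe sets above the 1X median 14.3% were lost. That share counts every probe set, while the lists use a single probe set a gene, so the bases differ. Above that median were 10 of 13 genes of complexes II and III, 23 of 29 of complex I, 12 of 13 of ATP synthase and 13 of 16 of cytochrome c oxidase. Of the 13 subunits of respiratory complexes II and III 8 were lost and 1 raised (median -1.24), and of the 29 of complex I 10 were lost and 1 raised (median -0.20). Uqcrh of complex III stood at 8.35 and then at 4.71, 4.48 and 4.49 (-3.79 ± 0.14), and Ndufb8 of complex I fell by 3.47 ± 0.13. Of 13 ATP synthase genes 5 were lost, among them Atp5l and Atp5e (-3.78 ± 0.16), while the catalytic alpha subunit Atp5a1 was kept at 9.90 and then 9.78, 9.93 and 9.93. Of 16 cytochrome c oxidase genes 3 were lost and 11 kept, with a median of 0.21.

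Glycolysis lost 8 of 20 genes and gained none (median -0.76), and the citric acid cycle with pyruvate dehydrogenase lost 9 of 24 (median -0.73). In these lists 16 of the 20 and 17 of the 24 genes were above the 1X median. Pyruvate kinase (Pkm) stood at 9.96 and then at 7.04, 6.91 and 6.73 (-3.07 ± 0.15), and Ogdh, a subunit of oxoglutarate dehydrogenase, fell by 2.92 ± 0.12. Aldolase A (Aldoa, -0.06) and the succinyl-CoA ligase subunit Sucla2 (-0.03) were kept.

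Genes of synaptic vesicles and of the cytoskeleton were lost in part. Of 36 presynaptic genes 13 were lost, 1 was raised and 18 were kept (median -0.53), with 34 of the 36 above the 1X median. The proton pump subunit Atp6v1b2 fell by 3.37 ± 0.17, complexin 1 (Cplx1) by 2.49 ± 0.12 and the vesicle SNAREs Vamp1 and Vamp2 by 2.31 ± 0.12 and 2.17 ± 0.13. Piccolo (Pclo), a scaffold of the active zone, was kept (-0.08). Of 28 glutamate receptor and postsynaptic genes 4 were lost and 22 kept, among them the scaffold Dlg4 (-0.15). Of 61 tubulin, actin and cytoskeleton genes 22 were lost and 3 raised, with 50 of the 61 above the 1X median.

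Small GTPases and vesicle traffic lost 22 of 62 genes, the proteasome and ubiquitin list 19 of 50 and chaperones 13 of 43. These lists were mostly bright, with 54 of the 62, 40 of the 50 and 35 of the 43 genes above the 1X median. Arf1, a GTPase of Golgi traffic, gave the highest 1X signal in the array, 13.91, and then 10.39, 10.18 and 10.30 (-3.62 ± 0.13). The neuronal deubiquitinase Uchl1 fell by 3.36 ± 0.14 and the chaperone Hspa8 by 2.72 ± 0.17. Cytosolic ribosomal protein genes lost 7 of 33 and had a median of 0.19, and 18 were kept. Of 33 immediate early and stress genes 29 were kept, and of 39 ion channel and pump genes 30 were kept and 5 lost, beside 80.6% kept and 8.06% lost of all genes.

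Among 16 housekeeping genes 5 were lost, 1 was raised and 6 were kept. Tubb5 fell by 2.39 ± 0.12, the elongation factor Eef1a1 by 1.99 ± 0.13 and Hprt by 1.77 ± 0.13, while beta-2-microglobulin (B2m) was kept (0.20). Actb was raised by both its probe sets outside the controls, from 6.01 to 8.27, 8.22 and 8.18 and from 5.15 to 6.55, 6.41 and 6.42, and both carry a suffix. The beta-actin control probe sets fell at each position (3′ -0.97, middle -4.91, 5′ -4.64), while those for the opposite strand rose.

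**Figure D3:**
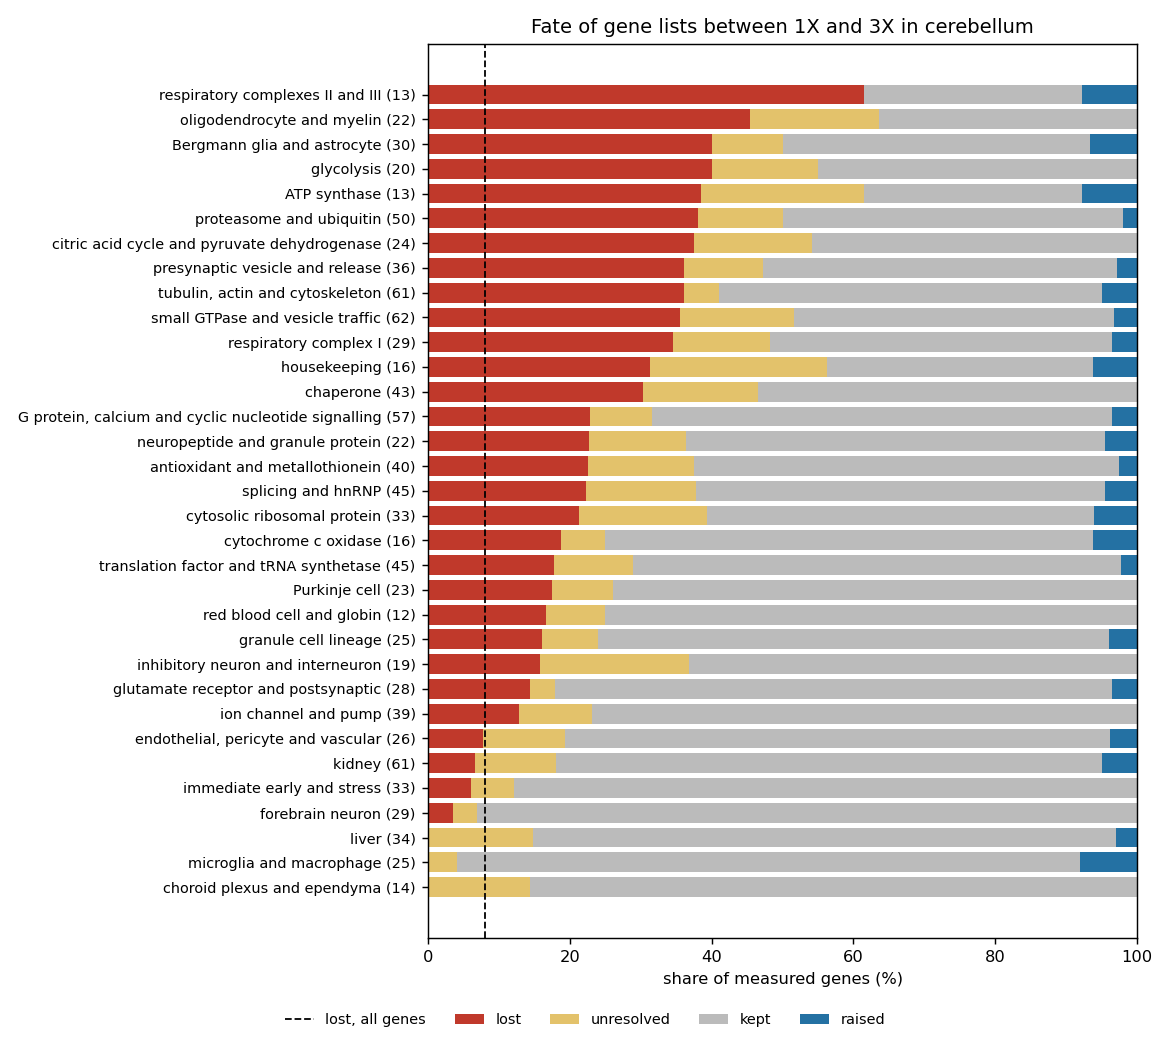
Share of measured genes lost, unresolved, kept and raised in each of 33 gene lists, with the number of genes measured in parentheses; the dashed line is the share lost of all 8251 genes. Complexes II and III, myelin, astrocyte and glycolysis lists lie farthest to the right of the line, and no microglia, choroid plexus or liver gene was lost.

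Control probe sets at 3 positions of a transcript showed a change in the profile of beta-actin. Its 3′ probe set gave 9.05 at 1X and 8.28, 8.07 and 7.90 at 3X, its middle one 11.77 and then 7.27, 6.79 and 6.52, and its 5′ one 9.81 and then 5.19, 5.32 and 5.01. The 3′ signal minus the 5′ signal was -0.76 at 1X and 2.75 to 3.09 at 3X. For Gapdh, which is named here only by its controls, that value was -3.10 at 1X and -2.58 to -2.02 at 3X. For pyruvate carboxylase the value moved the other way, from -3.41 to between -4.27 and -3.74. For the transferrin receptor it rose slightly, from 0.13 to between 0.21 and 0.55. Those probe sets were dim, at 2.79 (3′) and 2.66 (5′) at 1X, below the array median. The distance of other probe sets from the 3′ end was not analysed here, so the part of position in the losses was not tested.

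Some control signals were far brighter at 3X. The middle probe set of 18S ribosomal RNA gave 3.47 at 1X and 13.90, 13.84 and 13.69 at 3X. The 3′ beta-actin probe set marked _st, for the opposite strand, gave 4.41 and then 7.64, 7.60 and 7.37. All 3 3X arrays were far above the 1X array in both cases, and the part of these signals in the differences of other probe sets was not tested.

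**Figure D4:**
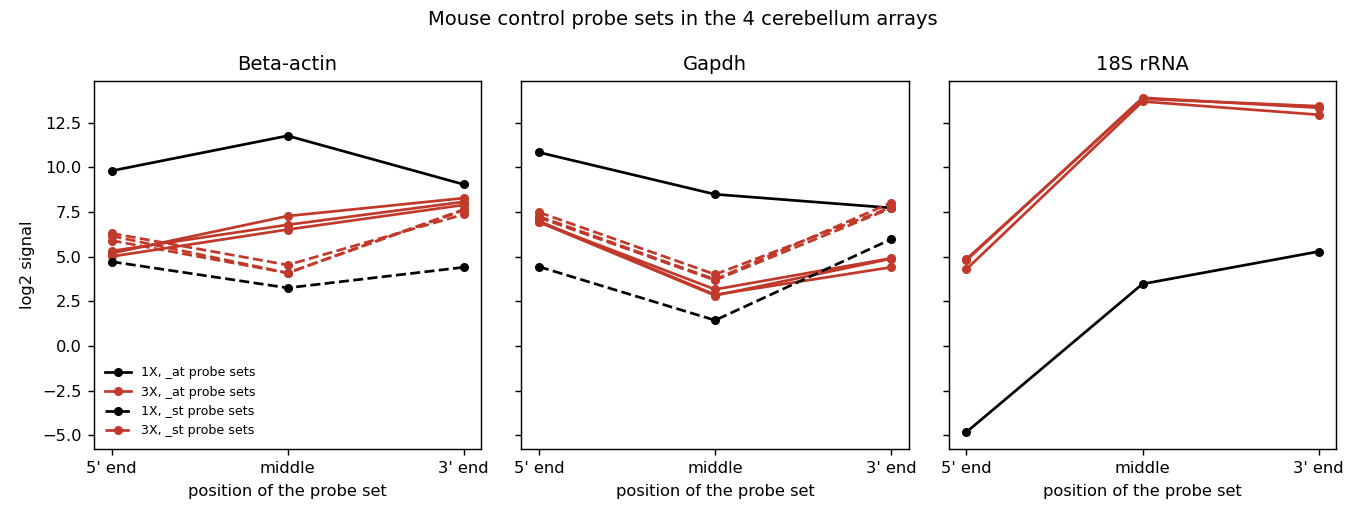
Log2 signal of the control probe sets at the 5′ end, middle and 3′ end of beta-actin, Gapdh and 18S ribosomal RNA in the 1X array (black) and the 3 3X arrays (red); dashed lines are _st probe sets. Beta-actin falls most at its 5′ end and middle, and the middle 18S signal climbs from 3.47 to between 13.69 and 13.90.

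Probe sets of the same gene did not always move together. Of 2073 genes with several probe sets, 200 had probe sets called in opposite directions and 20 had a lost and a raised one. Ndrg2, an astrocyte gene, had a probe set that fell from 8.50 to 5.44, 5.44 and 5.39 (-3.08 ± 0.12) and another that rose from 4.19 to 6.28, 6.39 and 6.40 (2.17 ± 0.12). Rps28 had a probe set lost (-2.41 ± 0.17) beside the raised one, and Ndufb2 of complex I had a probe set lost (-3.32 ± 0.13) and 2 raised (1.10 and 1.28).

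Aldh2, an aldehyde dehydrogenase, had a raised probe set that gave -1.17 at 1X and a lost one (-1.18 ± 0.12). Atp5l and Dynll2 had the widest gaps, each between a large loss and a small rise in a kept probe set (0.44 and 0.60). For these genes the call holds for the probe set and not for the gene.

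The amplification effect in cerebellum was set against that in the other tissues in a fit of the 12 arrays. Against the mean of the cortex and liver effects, 236 probe sets (1.9%) were lower in cerebellum and 184 (1.48%) higher. Against cortex alone these were 25 (0.201%) and 19 (0.153%), and against liver alone 658 (5.3%) and 597 (4.81%). Few probe sets were thus called against cortex, which does not show that the others had the same effect in both regions.

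Several genes with a stronger fall in cerebellum than in cortex and liver had more signal in cerebellum at 1X. Gpx3 gave 6.73 in cerebellum, 2.51 in cortex and 1.44 in liver at 1X, and its cerebellum effect minus the mean of the others was -3.81 ± 0.22 (limma adjusted p = 2.0e-05). Mobp (-3.38 ± 0.17), Mag (-2.51 ± 0.22) and the fainter probe set of Gabra6 (-2.63 ± 0.22) followed. All 4 were also lower than in cortex alone, by -3.34 for Gpx3, -1.95 for Mobp, -1.92 for Mag and -2.49 for Gabra6.

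Vsnl1 (-2.55 ± 0.24) and Snap25 (-3.63 ± 0.63) were called against liver and not against cortex: their effect minus that of cortex was -0.35 and -0.21. Snap25 went from 2.99 to a mean of 6.17 in liver, where the 3X SD was 0.93. The 8 genes with the most positive values were liver genes. The iron hormone hepcidin (Hamp) went from 8.92 to a mean of 2.68 in liver and stayed dim in cerebellum, at 2.12 and 2.36. Cyp2d10, Apoa5, Orm1, Plg, Serpina6, F2 and Serpinc1 were likewise lower at 3X in liver, and none of the 8 was called against cortex.

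The regional difference between cerebellum and cortex was smaller at 3X for many markers. For the regional difference itself, more cells of a type and more RNA per cell cannot be told apart in bulk samples. The 1X and 3X arrays were both made from RNA of the same animal. Whether the RNA used for them had the same mix of cells was not tested. Mag was 1.94 higher in cerebellum than in cortex at 1X and 0.02 higher at 3X, and Mobp, by its brighter probe set, 2.30 and 0.23. The median over the 22 myelin genes was 0.96 at 1X and 0.24 at 3X, and the number of them at least 2-fold higher in cerebellum was 11 and 1, beside 0.885% and 0.303% of all 8251 genes. The same medians were 0.15 and 0.12 for granule cells, 0.27 and 0.09 for Purkinje cells, and 0.35 and 0.15 for Bergmann glia and astrocytes.

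Some cerebellar markers kept over 1 log2 unit of their regional difference. Zic1 was 3.44 higher in cerebellum at 1X and 1.94 at 3X, the brighter Gabra6 probe set 3.54 and 2.33, and Neurod1 1.49 and 1.86. The other Gabra6 probe set was 2.69 higher at 1X and 0.19 at 3X. Of the 25 granule cell markers, 6 were at least 2-fold higher in cerebellum at 1X and 3 at 3X. The shares of all 8251 genes were 0.885% and 0.303%. Gabrd (-0.16 and -0.03) and Zic2 (-0.18 and -0.03) were slightly lower in cerebellum. In the labelled tissue Zic1 and, by its brighter probe set, Gabra6 were thus well above cortex under both procedures, unlike most of the list. Genes of forebrain neurons ran the other way, with a median of -0.68 at 1X and -0.23 at 3X. The peptide gene Cck was 3.54 lower in cerebellum at 1X and 1.14 lower at 3X, and the kinase gene Ptk2b 2.70 and 3.08. Only 1 of the 29 forebrain genes, Penk, was lost in cerebellum. In cortex the signal of Cck went from 8.54 to a mean of 5.65.

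Some kidney genes were also higher in cerebellum than in cortex. Of 61 measured genes of a kidney list, 11 were at least 2-fold higher at 1X and 7 at 3X, beside 0.885% and 0.303% of all 8251 genes. The list was written after kidney genes had been seen in cerebellum. Its counts, and its summed signal given below, are therefore no independent support. Kap, a kidney androgen-regulated protein, stood at 8.66 at 1X and at 5.87, 6.13 and 6.03 at 3X in cerebellum (-2.65 ± 0.14), with 4.92 in cortex at 1X. Miox, which breaks down inositol in the proximal tubule, stood at 8.51 and then at 6.06, 5.42 and 5.64 (-2.80 ± 0.22), with 4.67 in cortex. Both stayed above their cortex means at 3X, by 1.04 and 0.86.

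In the whole kidney list 11 of the 61 genes were called lower and 18 higher, beside 17.8% and 22.6% of all probe sets. Gatm, an enzyme of creatine synthesis, was lost (-2.80), as was Calb1, which is also in the Purkinje cell list. The protease Napsa rose from 3.70 to 5.68, 5.85 and 6.10 (2.17 ± 0.17) and the steroid dehydrogenase Hsd3b2 from 2.57 to 3.62, 3.85 and 3.99. Of the 61 genes 4 were lost, 3 raised and 47 kept, beside 8.06%, 2.41% and 80.6% of all 8251 genes. The summed linear signal of the 61 genes was 2268 in cerebellum and 1241 in cortex at 1X, and 1847 to 1964 against 1428 to 1504 at 3X. The summed signal was higher in cerebellum under both procedures, without overlap at 3X. Gpx3, which is also abundant in kidney, was lost as Kap and Miox were; the part of kidney transcripts in its loss was not tested.

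**Figure D5:**
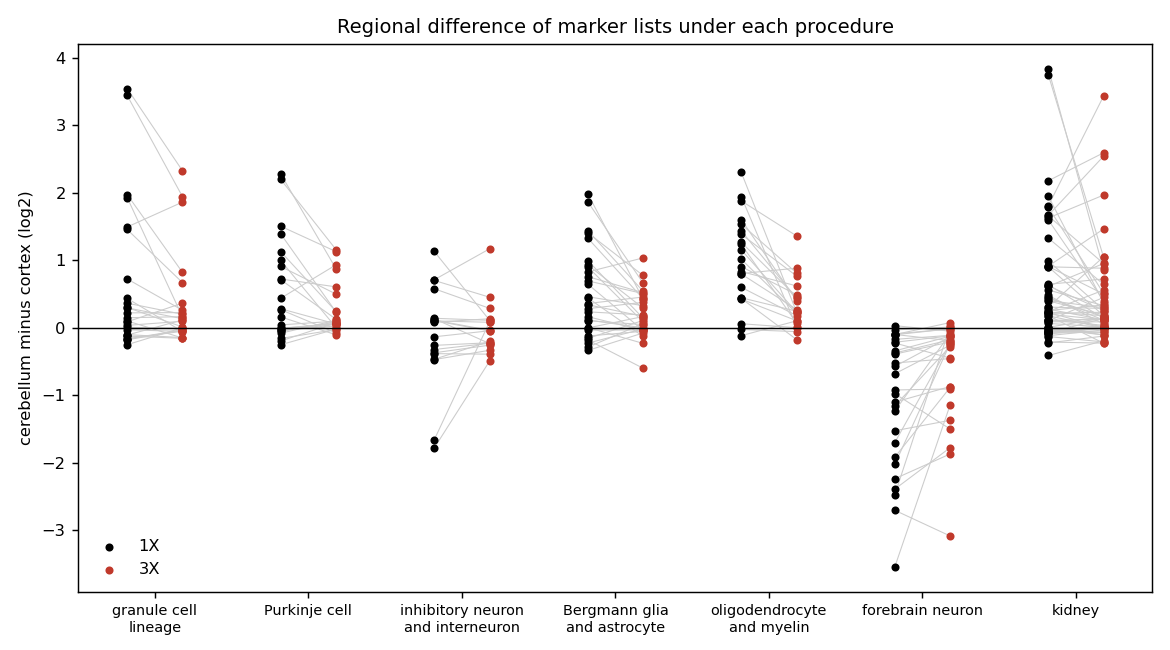
Cerebellum minus cortex on the log2 scale for each measured gene of 7 marker lists, at 1X (black, 1 array each) and at 3X (red, means of 3 arrays), with a line joining the values of a gene. The myelin points drop from a median of 0.96 to 0.24, and forebrain points move toward 0 from below.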

How the data were processed

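The authors made the deposited log2 signals with RMA, per the submitters' processing notes. Not given in the sources used here are its version, the log base and whether the 12 arrays were handled in 1 run. These values carry no present or absent call, and a dim one may be background. Precision is limited by the 4 cerebellum arrays.

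The 4 cerebellum arrays were fitted in R 4.3.3 with limma 3.58.1 (lmFit and eBayes, two-sided, Benjamini-Hochberg adjustment over 12422 probe sets). The cerebellum effect was set against the other tissues by contrasts of 6 group means in a fit of 12 arrays, in which each lone 1X array was assumed to vary like the 3X arrays. The fit of 4 arrays was run on simulated data. There all 4 arrays, the 1X one included, were drawn with the 3X spread. That run thus could not check the assumption that the lone 1X array varies like the 3X arrays. Genes were named from the platform annotation: 10833 probe sets had 1 symbol, 396 several and 1193 none, and only the first were named. Gene identifiers of 10817 were found in a RefSeq gene table, and no symbol changed.

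The members, the 33 gene lists (written from textbook knowledge) and the rules were chosen with earlier results of these data known. This holds most for the kidney list, which follows kidney genes already seen in cerebellum. Genes named were the 12 with the largest losses (1X signal above the 1X median) and the 12 with the largest gains (3X mean above the 3X median), each with the 1X array outside the 3X range, the 12 brightest kept genes and 6 kept genes of the cerebellar lists. To these came up to 6 genes by size and 3 kept genes per list, 8 per direction in the contrast with cortex and liver, 6 genes with opposing probe sets and a set of defining markers. Alternatives were 2 other scalings, filters on dim probe sets and on suffixes, a mean per gene, a trended and robust eBayes, a spread from 12 arrays, the replicate block, a floor on low values and leaving out each 3X array. Protein length was not analysed here.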

Additional observations from a re-analysis of the deposited data

Results flagged for a closer look

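The amplification effect of 16 genes differed between cerebellum and the mean of cortex and liver, by the contrast of the effects in limma (adjusted p under 0.05). The values below are the cerebellum effect minus that mean, on the log2 scale. It was -3.805 for Gpx3, -3.631 for Snap25, -3.384 for Mobp, -3.121 for Miox and -2.823 for Kap. It was -2.628 for the fainter Gabra6 probe set, -2.549 for Vsnl1 and -2.514 for Mag. Of these, the other 6 were also called against cortex alone, and Snap25 and Vsnl1 were not.

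In the positive direction it was 3.289 for Hamp, 2.785 for Cyp2d10, 2.762 for Apoa5, 2.505 for Orm1, 2.5 for Plg, 2.37 for Serpina6, 2.194 for F2 and 2.128 for Serpinc1. Their cerebellum signals were between 1.75 and 3.66 at 1X, and in liver these 8 genes were lower at 3X by 3.88 to 6.24.

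Among the control probe sets, which no comparison used, 4 of those that were brighter at 3X than at 1X in cerebellum are given first. For each of them the 1X array was below all 3 3X arrays. The difference was 10.34 for the middle and 7.954 for the 3′ probe set of 18S ribosomal RNA. It was 3.129 for the 3′ beta-actin and 2.875 for the 5′ Gapdh probe set of the opposite strand. Many other controls were brighter at 3X too, among them the 5′ probe set of 18S ribosomal RNA (9.477, from -4.823 at 1X). The controls BioC-5 (2.667) and BioB-3 (2.459) also rose. Others, such as the middle beta-actin probe set, were lower.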

How the results depend on the processing

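The 1X array is single, so its own spread is assumed, and dim signals limit what a kept call or a fold can show. Without 1 3X array, called probe sets numbered 3846 to 5533, lost 903 to 930, raised 355 to 371, kept 9765 to 10092 and the contrast with cortex and liver 293 to 309. The median difference of all probe sets was 0.14, and 0.09 and 0.15 with quantile normalization and with median centring.

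With probe sets above the median level only, 2924 were called (1412 lower, 1512 higher) and 4570 kept. Without suffixes 141 were raised. With a mean per gene, 1812 were higher, 566 lost and 123 raised; there are fewer features in each of these. Against cortex alone 44 probe sets differed in effect, and against liver alone 1255.

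A floor at each array's median was added after seeing the data. It gave 2057 called (1383 lower, 674 higher), 630 lost, 130 raised, 10368 kept and 1094 in the contrast with cortex and liver. Values at the floor have no spread: of the 2057, 523 had all 3X cerebellum arrays there, and of the 1094, 815 had all 3X arrays of at least 1 tissue there. Of those kept, 5255 were at the floor in all 4 arrays; they have no measured difference and no single value under this setting.

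The mean per gene turned the sign where probe sets opposed each other: Clu -1.104, Aldh2 0.8956, Atp5l -2.566, Dynll2 -2.028, Ndrg2 -0.4555, Ndufb2 -0.08005 (3 probe sets), Rps28 0.3472, Rpl10a 0.1948, Rab10 -0.1326 and Fos -0.1002. Over all alternatives, values of single probe sets were counted as unchanged in 3526 cases, past the threshold only as reported in 185 and only under the alternative in 44. The unchanged count takes in any value not called as reported whose sign changed, whether or not the alternative called it. Of list medians 279 stayed within 1 SD and 117 moved further. In the contrast with cortex and liver Plg was not called with a mean per gene (1.236).

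Same-numbered 3X arrays of different tissues had deviations correlated at -0.099 to 0.342, and differently numbered ones at -0.359 to 0.248. The same-numbered pairs of replicate 3 were at 0.294 to 0.342. The numbers were not taken as pairs in the main fit, and whether same-numbered arrays were handled together was not tested. With the replicate block, added after seeing the data for the comparison in cerebellum, 4350 probe sets were called, against 4025 with the same 12-array spread and no block, and 444 in the contrast with cortex and liver.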
